A study of Homo sapiens with 4 samples.

Results

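The liver growth factor FGF19, its receptor FGFR4 and coreceptor KLB, the other FGF receptors FGFR1, FGFR2 and FGFR3, the hormone FGF21 and the bile acid enzyme CYP7A1 were followed in HuH7 human liver cancer cells. These 8 genes were read by the 26 probesets that carry 1 of these symbols alone in the platform annotation and whose names do not end in _x_at, of 54613 probesets in all. A probeset is a group of short array probes that together give 1 value for a transcript. Each value is a log2 signal, so a difference of 1 is 2-fold, and a signal under 6 is treated as near background.

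HuH7 is an established hepatocellular carcinoma line. The parental group, F0, had 2 arrays, F0 (1) and F0 (2). F6 and F12 had 1 array each and came from tumors regrown in NOD/SCID immunodeficient mice over 6 and 12 rounds of treatment with JNJ-28841072, which inhibits VEGF receptors and aurora kinases. The phenotype label of F6 and F12 instead names resistance to sorafenib, and no array of tumors regrafted without drug was used here, so drug and regrafting cannot be told apart.

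FGF19 is a hormone-like member of the fibroblast growth factor family that the intestine releases when bile acids return from the gut. It binds FGFR4 together with KLB (beta-Klotho) on hepatocytes and represses CYP7A1, the rate-limiting enzyme of bile acid synthesis. Hepatocellular carcinomas can make FGF19 themselves and use the same receptor pair as a growth signal, while FGF21, a fasting hormone, uses KLB mainly with FGFR1.

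On F12, FGFR4, FGFR3 and FGF19 read lower than on every other array, and KLB read higher. FGFR4 was 5.98-fold, FGFR3 2.70-fold and FGF19 2.60-fold below the mean of the F0 arrays, each on the probeset with the highest mean signal. For FGFR4 the F0 arrays themselves differed, at 11.09 and 9.99, and F12 was 2.03 below the lower, F0 (2), in log2. On F6 none of the 8 genes lay 2-fold above or below both F0 arrays. KLB was 4.34-fold above the F0 mean on F12, but F0 (2) alone was almost as high. FGFR1 and FGFR2 showed smaller or divided differences, and FGF21 and CYP7A1 stayed near background.

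The parental arrays were unlike each other, and this bears on every result. They differed at least 4-fold for 10488 of 54613 probesets (19.2%), with a Pearson r of 0.720 across probesets, which are not independent replicates. F12 had an r of 0.979 with F0 (2) and F6 an r of 0.931 with F0 (1). F0 (2) was at least 2-fold below F0 (1) for 11 of the 26 FGF axis probesets, against 28.5% of all, and at least 2-fold above it for 4, against 21.4%. A member was therefore described as low or high on F6 or F12 only where it lay beyond both F0 arrays.

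By that measure 4 of the 26 probesets were at least 2-fold below both F0 arrays on F12, against 0.91% of all probesets, and 0 were 2-fold above both, against 1.51%. The 4 were the FGF19 probeset, 2 of the 4 FGFR4 probesets and the brighter FGFR3 probeset. With a log2 signal of at least 6 required on 1 array, 15 of the 26 remained and the same 4 were counted, against 1.88%. Of the 26, 1 was at least 4-fold below both, for FGFR4, against 0.114%. On F6, 0 of 26 were 2-fold above both F0 arrays, against 0.61%, and 0 were 2-fold below both, against 0.41%. By any amount, F12 was below both F0 arrays for 13 of 26, against 31.4%, and above both for 5, against 18.9%. Without F0 (1), 4 probesets were 2-fold lower on F12, against 3.1% of all probesets, and without F0 (2), 12 were, against 27.3%. The members were chosen with earlier results of these data known, so counts of them are not independent evidence of a direction. Probesets of the same gene are not independent of each other either.

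**Figure D1:**
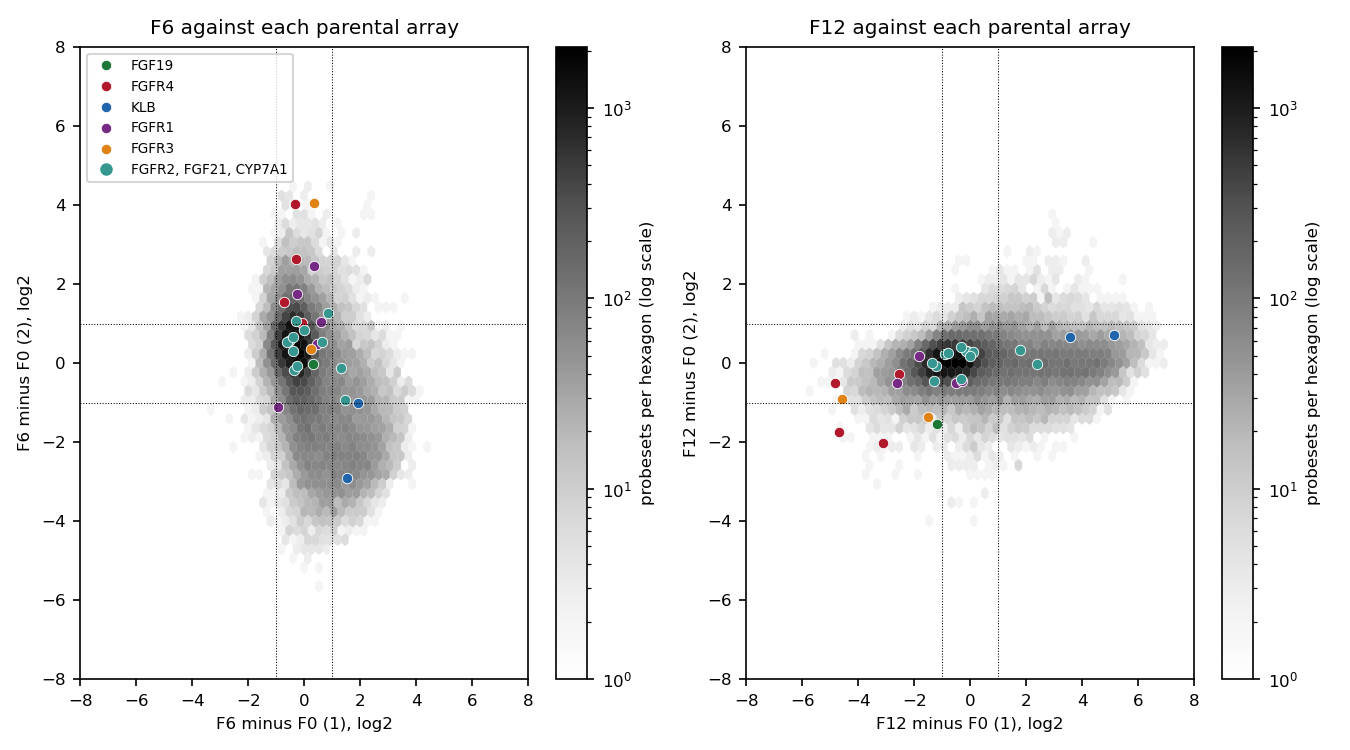
Log2 difference of F6 (left) and F12 (right) from F0 (1) on the horizontal axis and from F0 (2) on the vertical axis; grey hexagons count all 54613 probesets on a log scale, coloured points are the FGF axis probesets and dotted lines mark 2-fold. On F12 the 4 points beyond 2-fold in both directions downward belong to FGF19, FGFR4 and FGFR3, and KLB lies far to the right but within 2-fold of F0 (2).

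None of these differences passed limma, which was fitted over all 54613 probesets with Benjamini-Hochberg adjustment. The adjusted p was 1 for each of the 26 probesets in each of 4 comparisons (F6 against F0, F12 against F0, F12 against F6, and F6 with F12 against F0). Over all probesets 0 passed as well (0% in each comparison), with 34, 109, 137 and 104 at an unadjusted p under 0.05. Only the F0 pair was replicated, which left 1 residual degree of freedom, so F6 and F12 are assumed to vary as the F0 pair did. Nothing in the labels tells if separate cultures or tumors gave the F0 arrays, so these p-values measure only a spread that may be technical.

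Among the ligands, FGF19 read 8.35 on F0 (1), 8.70 on F0 (2), 8.68 on F6 and 7.15 on F12. The F0 arrays and F6 lay within 0.35 of each other, and F12 was 1.20 below the lower F0 array. Against the F0 mean of 8.53 ± 0.25 (SD, n = 2), F12 differed by -1.38 (SE 1.16, limma adjusted p = 1) and F6 by 0.16. FGF19 was thus one of the members whose parental arrays were alike, and its difference on F12 was larger than their spread. It has 1 probeset, so no second reading of the gene was at hand.

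FGF21, a hormone made by the liver in fasting and under stress, read 5.17, 4.98, 4.80 and 5.27 in the order F0 (1), F0 (2), F6, F12. All 4 signals were near background, and F12 was higher than F6 by 0.47.

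Genes that govern FGF21 were measured on a list of 9, including ATF4, a transcription factor of the amino acid response. ATF4 read 12.28, 12.60, 12.62 and 12.56 in the same order. DDIT3, a stress-induced factor also called CHOP, read 8.08 on F6 against 9.25 and 9.66 on the F0 arrays and 9.53 on F12. It was the 1 gene of the list at least 2-fold beyond both F0 arrays on F6, and 0 were on F12. Over all genes, by 1 probeset each, 0.561% were below and 0.576% above both on F6. On F12 these shares were 1.37% and 1.93%.

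FGFR4, the main FGF receptor of hepatocytes, had 4 probesets, and all 4 read lowest on F12. On 2 of them F0 (2) was near background as well. The brightest read 11.09 on F0 (1), 9.99 on F0 (2), 11.00 on F6 and 7.96 on F12. F6 lay between the parental arrays and F12 was 2.03 below the lower of them. Against the F0 mean of 10.54 ± 0.78 (SD, n = 2) the difference on F12 was -2.58 (SE 1.21, limma adjusted p = 1), and on F6 it was 0.46. FGFR4 was 8.22-fold lower on F12 than on F6 by this probeset.

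The other FGFR4 probesets had the same numerical order of arrays with wider parental gaps, but 2 of them do not resolve F12 from F0 (2). Probeset 211237_s_at read 9.81, 6.89, 9.53 and 5.13 in the order F0 (1), F0 (2), F6, F12, with F12 1.76 below the lower F0 array, a limit since F12 was near background. Probeset 1554962_a_at read 9.46, 5.12, 9.14 and 4.62, and 1554961_at read 6.77, 4.51, 6.05 and 4.24. In these last 2, F0 (2) and F12 were both near background, 0.51 and 0.27 apart, so they give no order of F12 and F0 (2). The gap from F0 (1) to F0 (2) ranged from -1.10 for the brightest probeset to -4.34 for 1554962_a_at, although all 4 are annotated to FGFR4 alone.

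KLB, the coreceptor without which FGF19 and FGF21 bind poorly, went the other way. Its brighter probeset read 7.25 on F0 (1), 10.17 on F0 (2), 9.16 on F6 and 10.83 on F12. Its second probeset read 3.40, 7.85, 4.94 and 8.55 in the same order. F12 was highest on both, by 0.65 and 0.70 over F0 (2), and F6 lay between the F0 arrays on both. Against the F0 mean of 8.71 ± 2.07 (SD, n = 2) the difference of the brighter probeset was 2.12 on F12 (SE 1.49, limma adjusted p = 1). That difference is close to the SD of the parental pair. Without F0 (1) it was 0.65 and without F0 (2) it was 3.58.

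FGFR3, a receptor best known from the skeleton and bladder, read 10.49, 10.36, 10.72 and 8.99 in the order F0 (1), F0 (2), F6, F12 by its brighter probeset. Its parental arrays were 0.13 apart, F6 was 0.23 above the higher and F12 was 1.37 below the lower. Against the F0 mean of 10.43 ± 0.09 (SD, n = 2), F12 differed by -1.43 (SE 1.15, limma adjusted p = 1). The second probeset, 204380_s_at, read 7.12, 3.43, 7.46 and 2.52. F0 (2) and F12 were near background there, and the F0 arrays differed by -3.69, so the probesets of FGFR3 disagree on the parental pair and this one gives no order of F12 and F0 (2).

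FGFR1, the usual partner of KLB for FGF21 outside the liver, had 5 probesets. The brightest, 211535_s_at, read 8.37 on both F0 arrays, 8.84 on F6 and 7.85 on F12. F6 was 0.47 above and F12 0.52 below both parental arrays, so neither lay 2-fold from them. Probeset 226705_at read 7.74, 7.31, 8.36 and 7.62, with F6 again highest and F12 inside the parental range. Probeset 210973_s_at read 7.75, 5.65, 8.11 and 5.15, and 207822_at read 5.65, 3.64, 5.39 and 3.83, near background on all 4 arrays. The remaining one, 222164_at, read 6.21, 6.38, 5.25 and 5.91 and was lowest on F6. The FGFR1 probesets thus gave no single order of the arrays.

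FGFR2, whose splice forms divide epithelial from mesenchymal FGF responses, had 10 probesets, of which 8 read under 6 on all 4 arrays (between 3.07 and 5.82). The other 2 were low on F0 (1). Probeset 203638_s_at read 4.80, 7.20, 6.25 and 7.18 in the order F0 (1), F0 (2), F6, F12, and 208228_s_at read 4.59, 6.04, 5.90 and 6.37. F12 differed from F0 (2) by -0.02 and 0.33 on these probesets.

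CYP7A1, the gene that FGF19 signalling represses in hepatocytes, read 2.20, 2.02, 1.96 and 2.21 in the order F0 (1), F0 (2), F6, F12. All 4 values are at the bottom of the scale, whose lowest value was 1.49, so a decrease was not detectable, and no array showed a signal above background.

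F12 and F6 were also compared directly. F12 was at least 2-fold lower than F6 for 11 of the 26 probesets, against 12.1% of all, and at least 2-fold higher for 2, both of KLB, against 17.9%. The 11 held all 4 FGFR4 probesets, both of FGFR3, the FGF19 probeset, 2 of FGFR1 and 2 of FGFR2. With a log2 signal of at least 6 required on 1 array, F12 was 2-fold lower for 8 of 15 probesets, against 21.4%. It was 2-fold higher for 2 of the 15, against 32.4%. FGF19 was 2.89-fold lower on F12 than on F6. In limma 2 of the 26 had an unadjusted p under 0.05, both lower on F12, against 0.104% of all probesets, and 0 of 26 were higher at that level, against 0.146%. These were 211237_s_at of FGFR4 (log2 difference -4.40, unadjusted p = 0.037 in limma) and 204380_s_at of FGFR3 (-4.95, unadjusted p = 0.035 in limma). F12 was near background on both, so these differences are limits, and F0 (2) differed from F0 (1) by -2.92 and -3.69 there.

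The stretches before the transcript starts of FGFR4, FGFR3 and KLB are shown for 2 receptors that were low on F12 and for the coreceptor. KLB was highest on F12 but within 2-fold of F0 (2). A link between these letters and the array signals was not tested. They are the 250 bases before a start in RefSeq, build GRCh38.p14, on the plus strand, at chr5:177086665-177086914 for FGFR4 (the upstream of 2 listed starts), chr4:1793043-1793292 for FGFR3 and chr4:39406680-39406929 for KLB. Capitals mark the GC box GGGCGG on either strand, the letters bound by SP1-like factors. 
FGFR4: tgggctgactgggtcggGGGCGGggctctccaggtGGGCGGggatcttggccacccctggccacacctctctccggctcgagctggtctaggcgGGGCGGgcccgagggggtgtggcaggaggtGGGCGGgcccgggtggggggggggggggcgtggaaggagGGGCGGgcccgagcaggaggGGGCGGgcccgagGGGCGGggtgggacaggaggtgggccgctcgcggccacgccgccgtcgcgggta
FGFR3: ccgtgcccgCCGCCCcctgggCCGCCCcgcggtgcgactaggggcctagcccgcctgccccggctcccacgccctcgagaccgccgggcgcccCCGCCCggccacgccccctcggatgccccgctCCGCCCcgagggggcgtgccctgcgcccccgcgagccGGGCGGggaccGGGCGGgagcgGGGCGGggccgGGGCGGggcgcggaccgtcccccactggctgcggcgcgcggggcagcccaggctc
KLB: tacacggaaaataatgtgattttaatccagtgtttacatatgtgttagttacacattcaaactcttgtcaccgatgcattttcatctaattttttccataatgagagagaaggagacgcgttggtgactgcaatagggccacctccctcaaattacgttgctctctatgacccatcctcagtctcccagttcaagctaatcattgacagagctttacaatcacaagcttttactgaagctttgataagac

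FGFR4 held 7 GC boxes and FGFR3 8, while KLB held 0. A GC box was present in 42.6% of 35116 RefSeq windows of this length, and at least 7 in 1.12%. The windows were 79.6%, 86.8% and 39.2% G and C for FGFR4, FGFR3 and KLB, against a median of 58% (quartiles 46.4% and 68%). The downstream start of FGFR4 had 0 GC boxes and 57.2% G and C, so the description depends on the start used. GC boxes were not limited to the receptors low on F12: of 5 FGFR2 starts, 1 had 3 boxes and 78.4% G and C and another had 1 box. FGF21 had 0 and 60% G and C. The 3 printed windows held none of the CCAAT box (CCAAT), the TATA box (TATAAA), the AP-1 motif (TGANTCA) or the E-box (CACGTG) on either strand, so no GC box overlapped another of these motifs. Those occur in 32.0%, 10.7%, 6.57% and 6.34% of all windows. A match describes the letters only. RefSeq entries were matched for 5 of the 8 genes by symbol. FGF19, also low on F12, FGFR1 and CYP7A1 had no entry, so their windows are not described.

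Outside the 8 genes, 1 probeset a gene was used, the one with the highest mean. Over all 19775 genes, 1.37% were at least 2-fold below both F0 arrays on F12 and 1.93% above both, and on F6 0.561% were below and 0.576% above. The median difference from the F0 mean over all genes was -0.24 on F12 and 0.06 on F6. No gene of these lists passed limma (adjusted p = 1 for each).

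Feedback and output genes of FGF and MAPK signalling lay at least 2-fold under both parental arrays on F12 for 5 of 18 members and above both for 0. Their median difference from the F0 mean was -1.08 on F12 (-0.52 from F0 (1) and -1.30 from F0 (2)) and 0.48 on F6. ETV4, an ETS transcription factor made in response to FGF signals, read 10.41, 7.17, 10.15 and 4.77 in the order F0 (1), F0 (2), F6, F12. The ETV4 signal on F12 was near background, so its distance is a limit. ETV5, its close relative, read 8.09, 9.08, 9.75 and 6.18. Its other 4 probesets did not reach 2-fold on F12, with 3 of them below both F0 arrays by 0.53 to 0.80 and 1 inside the parental range. The phosphatase DUSP5, which acts on ERK, read 9.92, 9.22, 10.65 and 7.74.

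SPRY4 and SPRY1, Sprouty inhibitors of receptor signalling, were the remaining 2 of the 5. SPRY4 read 6.35, 6.21, 6.87 and 4.91, near background on F12, so its distance is a limit. SPRY1 read 9.22, 7.37, 8.87 and 6.08. The dimmer SPRY1 probeset, at 5.86, 8.70, 8.24 and 6.73, put F12 between the F0 arrays. DUSP6, the phosphatase most tied to FGF signals, read 8.18, 11.93, 9.91 and 8.73 and was not beyond both F0 arrays on F12. Without F0 (1) 10 of 18 were 2-fold lower on F12, against 3.78% of all genes, and without F0 (2) 9 were, against 32% of all genes. Part of this list was already known to be low on F12 when it was drawn up, so it is not independent evidence of the direction.

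Adaptors that carry the FGF receptor signal to RAS had 12 of 16 listed genes measured. SHC1, an adaptor that links receptors to GRB2, was the 1 gene at least 2-fold below both F0 arrays on F12, and 0 were above both. It read 12.41, 12.31, 12.41 and 10.08 in the order F0 (1), F0 (2), F6, F12, and its dimmer probeset 10.20, 7.50, 9.40 and 5.99, so F12 was lowest on both. On F6, 0 of 12 were beyond both F0 arrays by 2-fold. PTPN11, the phosphatase SHP2, read 6.90, 11.90, 9.29 and 11.81, and GRB2 read 9.90, 10.62, 10.15 and 10.59. The median difference of the 12 on F12 was 1.03 from F0 (1) and 0.02 from F0 (2).

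The other secreted FGF ligands (16 genes measured) had 0 members 2-fold beyond both F0 arrays on either F6 or F12, and 13 of them read under 6 on all arrays. FGF11 to FGF14, relatives that stay in the cell, likewise had 0 of 4. Coreceptors and binding proteins had 1 of 16 above both on F12 and 2 of 16 above both on F6. FLRT2, a membrane protein of an FGFR-binding family, read 4.51, 6.42, 4.39 and 8.22, but its second probeset 204358_s_at read under 6 on all arrays with F12 inside the parental range. FGFBP3, which carries FGFs from the matrix, read 6.73 on F6 against 5.16 and 5.27, and 5.60 on F12, near background except on F6. Syndecan-2 (SDC2), a heparan sulfate carrier, read 11.05 on F6 against 10.00 and 9.76, though its other 2 probesets had F6 between the F0 arrays. Klotho (KL), the coreceptor for FGF23, read between 1.81 and 2.70.

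Bile acid genes around CYP7A1 were counted in the same way. Over all genes, 0.561% were at least 2-fold below both F0 arrays on F6 and 1.37% on F12. Of 12 synthesis genes measured, AKR1C4, a steroid reductase, was 2-fold below both on F6 (4.21) and on F12 (3.88) against 5.63 and 6.01, near background except on F0 (2). Of 12 transport genes, 1 was below both on F12 and 2 on F6. SLC51A, a subunit of the basolateral bile acid exporter, read 7.36, 6.93, 6.75 and 4.97 in the order F0 (1), F0 (2), F6, F12, near background on F12. Its partner SLC51B read 9.21, 7.59, 6.49 and 7.33, and the efflux pump ABCC3 read 7.56, 8.52, 6.43 and 6.78. By its other probesets F6 was only 0.14 below both F0 arrays (209641_s_at) or inside the parental range (242553_at). Of 10 genes that sense bile acids or control CYP7A1, 0 lay 2-fold beyond both F0 arrays, and the repressor NR0B2 (SHP) read 6.99, 6.25, 7.09 and 6.83.

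FGF19 lies on chromosome 11 in a stretch often amplified in liver cancer, between the genes LTO1 and FGF4 in RefSeq order. None of 11 listed neighbours lay 2-fold beyond both F0 arrays on F6 or F12. CCND1, the cyclin D1 gene 3 coding genes away, read 8.21, 8.96, 8.32 and 8.71, with F12 inside the parental range.

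Genes with patterns most like FGF19, FGFR4 and KLB were sought among 10179 other genes that reached log2 6 and ranged over at least 1, by the root mean square distance of centred log2 values over 4 arrays. Those nearest to FGF19 were UBE2T, a ubiquitin-conjugating enzyme of DNA repair (distance 0.076), MCM4, a subunit of the replicative helicase (0.092), and the adhesion molecule ICAM1 (0.093). FGFR4 was nearest to TUBA4A, an alpha tubulin (0.060), CDCA3, a cell cycle gene (0.089), and the somatostatin receptor SSTR2 (0.15). KLB was nearest to WARS2, the mitochondrial tryptophan tRNA ligase (0.034), SMAP1 (0.035) and GINM1 (0.045). With 4 points a gene, these distances describe the arrays only.

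The cell type was checked on markers. Of 9 hepatocyte and liver cancer markers measured, all 9 reached log2 6 on at least 1 array, and albumin (ALB) read between 10.18 and 13.75. That level was reached by 24409 of all 54613 probesets, while each marker was read by its probeset with the highest mean. APOA1 read 6.57, 5.20, 6.17 and 5.28 in the order F0 (1), F0 (2), F6, F12, so it was near background on F0 (2) and F12. HNF4A, also listed, was not measured. SERPINA1, a secreted liver protein, was 2-fold above both F0 arrays on F6, at 13.82 against 12.43 and 11.20. The summed linear signal of the 9 was 17699 and 65275 on F0 (1) and F0 (2), 44981 on F6 and 62427 on F12. Endothelial, fibroblast and macrophage markers each had 1 member that reached log2 6 on at least 1 array (PECAM1, PDGFRB and CD14), of 6, 7 and 5 measured. These probesets are for human genes, so the presence of cells from the mouse hosts in F6 and F12 was not tested. Their summed signals ranged from 143 to 195, 124 to 239 and 82.2 to 206 over the arrays. CDH5, KDR, COL3A1 and MRC1, among the dimmest of these markers, read between 2.41 and 3.31. Others were brighter though still under 6, such as COL1A1 (5.74), VWF (5.61) and CSF1R (5.74) on F0 (1). CD14 was lowest on F12, near background at 5.16 against 6.89 and 6.22 on the F0 arrays, and its part in the FGF axis values was not tested. In bulk RNA, fewer cells of a kind and less RNA per cell cannot be told apart.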

How the data were processed

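Total RNA from the tissue specimens was labelled by a 3' in vitro transcription kit and hybridised to 4 expression arrays, per the labels' protocols. The deposited values are log2 signals, 1 per probeset, made by the authors with RMA (background correction, quantile normalization and summary) in the affy package, per the submitters' processing notes; their versions were not given in the sources used here. Array medians lay between 4.67 and 4.85. Such values have no depth, so the number of arrays limits precision.

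Of 54613 probesets, 41091 had 1 gene symbol, 1801 several and 11721 none; 3 probesets of the members ending in _x_at, which mark possible cross-hybridization, were left out. The test was limma 3.58.1 (lmFit, then eBayes; R 4.3.3) with Benjamini-Hochberg adjustment over all probesets and a threshold of 0.05. F0, F6 and F12 were 3 groups; for F6 with F12 against F0 there were 2 groups, leaving 2 residual degrees of freedom. The procedure was tested on simulated data. These had less spread than the median SD of the F0 pair, 0.71, so they do not tell what could be detected here. The members and the 15 gene lists were chosen with earlier results of these data known. All 8 members are named whatever they did; of the lists, genes at least 2-fold beyond both F0 arrays with log2 of at least 6 on 1 array are named, up to 5 a list, along with single genes chosen after their values were seen as examples. Alternatives were 1 probeset a gene, a minimum signal, an intensity trend, subtracted array medians, mean of probesets, the value expected from a linear fit on the F0 arrays, and leaving out each F0 array.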

Additional observations from a re-analysis of the deposited data

Results flagged for a closer look

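For 4 of the 8 members, F6 and F12 lay on opposite sides of both F0 arrays, on the probeset with the highest mean, against 7.07% of all genes. The difference of F12 from F6 was -0.99 for FGFR1 and -1.73 for FGFR3, with F6 above and F12 below both F0 arrays. It was 0.47 for FGF21 and 0.25 for CYP7A1, with the opposite order, between signals near background. F12 was above F0 (1) by only 0.10 for FGF21 and 0.005 for CYP7A1. Where log2 6 on 1 array was required, 4 of 15 member probesets lay on opposite sides, all of FGFR1 or FGFR3, against 7.84%. With 1 array each, the difference between F6 and F12 in their distance from F0 was not tested beyond the limma comparison of F12 with F6. There the adjusted p was 1 for all 4 members. Among all genes, 4.08% were highest on F6 and lowest on F12, as FGFR1 and FGFR3 were, and 3% lowest on F6 and highest on F12, as FGF21 and CYP7A1 were.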

How the results depend on the processing

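In limma, 0 probesets passed under each alternative run for the 4 comparisons, with 1 exception. With an intensity trend in the prior 1 probeset, of ADH1B, passed for F12 against F0 (adjusted p = 0.00317), and none of the members did. Leaving out an F0 array leaves no residual degree of freedom for 3 groups, so those tests were not run; for F6 with F12 against F0, 0 passed without either F0 array. Leaving out each F0 array in turn, counts chosen after seeing the data, the member probesets 2-fold higher on F6 numbered 4 (against F0 (1), beside 12.4% of all probesets) to 10 (against F0 (2), 12.8%), in place of 0 above both, and those lower on F6 0 (3.15%) to 3 (18%), in place of 0. On F12 they numbered 0 higher than F0 (2) (2.19%) to 4 higher than F0 (1) (21.3%), in place of 0, and 4 lower than F0 (2) (3.1%) to 12 lower than F0 (1) (27.3%), in place of 4. Feedback and output genes lower on F12 numbered 9 against F0 (1) (32% of all genes) to 10 against F0 (2) (3.78%), in place of 5.

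The differences on F12 from F0 of FGF19 (-1.20 to -1.55), FGFR4 (-1.91 to -3.13) and FGFR3 (-1.21 to -2.09) kept their sign under every alternative run. Because these genes lay below both F0 arrays on F12, leaving out either array could not change the sign. FGF19 has 1 probeset, so the mean of its probesets is the same value. For KLB the value went from 2.12 to 0.88 against the linear fit on the F0 arrays, and for FGFR2 from 1.18 to 0.10 there and to -0.08 with the mean of its probesets. For FGFR3 on F6 the mean of probesets gave 1.24 and the linear fit 0.05, in place of 0.29. The cause was not tested. No paired analysis was possible because only the F0 arrays carry a replicate number.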

Other observations

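Heparan sulfate, the sugar chain that FGFs need to bind their receptors, is built by enzymes of which 12 of 13 listed had a probeset with 1 symbol. On F12, 1 lay 2-fold above both F0 arrays and 0 below both, and on F6, 0 above and 1 below. HS6ST2, a 6-O-sulfotransferase, read 5.83, 10.32, 8.21 and 11.32 in the order F0 (1), F0 (2), F6, F12, and its second probeset 5.20, 9.47, 7.58 and 10.49, the array order seen for KLB. HS3ST1, a 3-O-sulfotransferase, read 6.53, 6.15, 4.67 and 5.70 and was lowest on F6, with F6 and F12 near background. Its second probeset, at 5.86, 4.60, 4.97 and 4.44, had F6 between the F0 arrays.

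The probesets ending in _x_at, left out above, read 7.87, 6.38, 7.52 and 6.03 (207937_x_at, FGFR1), 7.02, 6.97, 6.36 and 7.01 (215404_x_at, FGFR1) and 7.25, 5.31, 6.56 and 5.35 (208234_x_at, FGFR2) in the order F0 (1), F0 (2), F6, F12.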
